A study of Mus musculus with 18 samples.

Results

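The change shared by the loss of *Cxcl12* and the loss of *Myc* was measured in injured mouse kidneys, as the difference between 10 knockout (KO) kidneys and 8 control kidneys with the cohort as a block. All 18 of the 18 samples of the series entered, with 5 KO and 3 control kidneys in the *Cxcl12* cohort and 5 of each in the *Myc* cohort, and genes were described where their change had the same direction in both cohorts. The mice were adult males of a C57BL/6 background in the labels, and the study's methods name the floxed lines C57BL/6J. All of them carried Pax8rtTA, a transgene that lets doxycycline switch on gene expression in kidney tubule cells, and all drank doxycycline before a washout. Mice of the *Cxcl12* cohort had the genotype *Cxcl12* fl/fl, with loxP sites around both copies of the gene, and mice of the *Myc* cohort had the genotype *Myc* fl/fl. KO mice also carried TetOCre, the doxycycline-dependent recombinase that excises the floxed gene, and control mice, called WT in the sample titles and Control in the genotype labels, lacked it. Carriage of TetOCre and loss of the floxed gene cannot be told apart in either cohort, which applies to every shared change given here. Blood flow to both kidneys was stopped for 22.5 min, and the organs were taken after reperfusion of 12 h. Whole perfused kidneys were sequenced, so that fewer cells of a type and less RNA per cell cannot be told apart. The excision reaches tubule cells, while the RNA came from all cells of the organ.

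CXCL12 is a chemokine that acts through the receptor CXCR4 and directs the migration and retention of cells. MYC is a transcription factor that binds the E-box sequence CACGTG together with MAX and is known for raising the output of ribosomes, nucleotides and mitochondria. In the first hours after ischemia and reperfusion, kidney tubules are known to switch on immediate-early transcription factors, cytokine genes and injury markers, to lose transcripts of transport proteins, and to receive neutrophils from the blood.

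Between 12918220 and 29749500 reads per kidney (median 17484113) were counted on genes. Levels are given as CPM, which are counts relative to the library size after TMM scaling, in the order of the replicate numbers 1 to 5 or 1 to 3 of the labels. *Cxcl12* had 28.7, 36.3, 29.2, 26.3 and 40.9 CPM in the *Cxcl12* KO kidneys and 55.1, 60.5 and 44.9 CPM in their controls, and the groups of this cohort did not overlap (log2 fold change -0.73, adjusted p = 0.0942 over all genes, unadjusted p = 0.000439). *Myc* had 37, 29.2, 29.7, 26.6 and 32.4 CPM in the *Myc* KO kidneys and 117, 92.7, 85.9, 98.8 and 79.7 CPM in their controls, again without overlap (log2 fold change -1.61, adjusted p = 8.8e-05). In the cohort of the other gene neither passed the test, with log2 fold changes of 0.14 for *Cxcl12* in *Myc* KO and 0.21 for *Myc* in *Cxcl12* KO kidneys (unadjusted p = 0.410 and 0.135). The 28 proximal tubule markers were all detected and summed to between 13880 and 23990 CPM per kidney, and only 3 of 18 lymphocyte markers passed the filter on low counts, at a sum of 1.74 to 3.54 CPM. A low share of unmapped reads, under 5%, set 6 kidneys apart. They were *Cxcl12* KO 1 and 2, *Myc* KO 3 and 5, and *Myc* control 1 and 3, with no *Cxcl12* control among them. Neither the labels nor the study's methods name a batch they belong to. The methods do report a correction for batch effects with ComBat, without saying which samples formed the batches. The main fit here had no batch term.

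Over both cohorts together, genes called higher in KO kidneys included 11 of 27 tested NF-kappaB, TNF and IL-1 signalling genes and 5 of 22 immediate-early genes. Genes called lower included 4 of 23 markers of the loop, distal tubule and collecting duct, where 1 was called higher. Of these 23 markers 10 had a higher value, and the list median was -0.02. Of 15903 genes tested over both cohorts, 614 (3.86%) had an adjusted p under 0.05 in the quasi-likelihood test of edgeR, which is what a call means here. Of these, 370 (2.33%) were higher and 244 (1.53%) lower in KO kidneys. The cohorts were also fitted alone, and 605 of the 608 called genes tested in each fit changed in the same direction in both, 365 higher and 240 lower. Among all 14727 genes tested in each fit, 60.8% had the same direction. The pooled test favours genes that move alike, so that the share among called genes is in part fixed by the choice. The shared changes were mostly modest. The median log2 fold change was 0.38 for the 365 higher genes (0.36 with loss of *Cxcl12* and 0.41 with loss of *Myc*) and -0.37 for the 240 lower genes (-0.28 and -0.42), against -0.01 for all genes tested. Only 13 higher and 2 lower genes changed by more than 1 on the log2 scale.

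**Figure D1:**
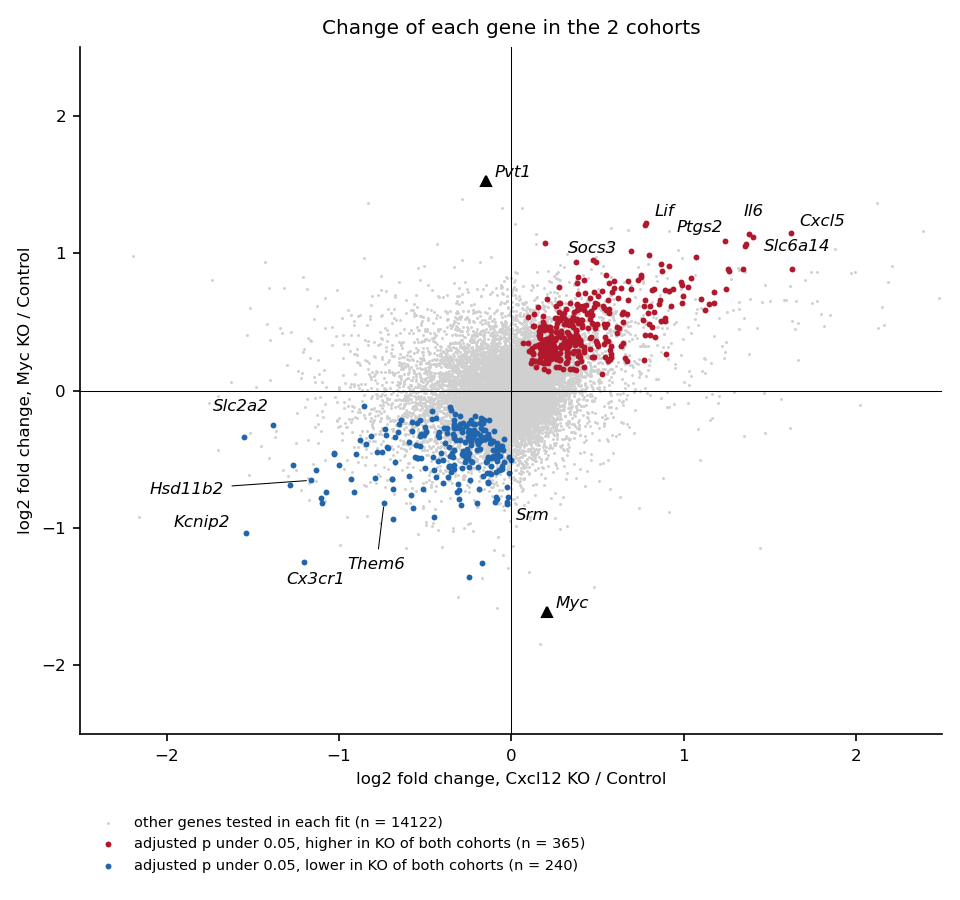
Log2 fold change of each gene in the *Cxcl12* cohort (x axis) against the *Myc* cohort (y axis), each KO against control and fitted alone. Red and blue points are the 365 higher and 240 lower genes called over both cohorts, grey points are the other 14122 genes, black triangles mark *Myc* and *Pvt1*, and 5 genes lie outside the axes. The red points reach further from the origin along the diagonal than the blue points, and *Myc* and *Pvt1* lie on opposite sides of 0 in the 2 cohorts.

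Since the cohorts share no kidney, genes chosen in one cohort were read in the other. Of 264 genes that were higher in *Cxcl12* KO kidneys with an unadjusted p under 0.01, 230 (87.1%) were also higher in *Myc* KO kidneys, with a median log2 fold change of 0.32 there. Of 508 genes higher in *Myc* KO kidneys, 422 (83.1%) were also higher in *Cxcl12* KO kidneys, with a median of 0.18. Over all higher genes, whatever their p, 60.2% and 61.8% had the same direction in the other cohort. The genes that were lower recurred at a share near this background. Of 345 genes lower in *Cxcl12* KO kidneys, 223 (64.6%) were also lower in *Myc* KO kidneys (median -0.08, background 61.5%), and of 699 genes lower in *Myc* KO kidneys, 411 (58.8%) were also lower in *Cxcl12* KO kidneys (median -0.03, background 59.9%). Without the 6 kidneys of low unmapped share, the shares were 90.3% and 71.2% for higher genes and 56.9% and 59.1% for lower genes. Whether higher and lower genes differed in this respect was not tested.

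**Figure D2:**
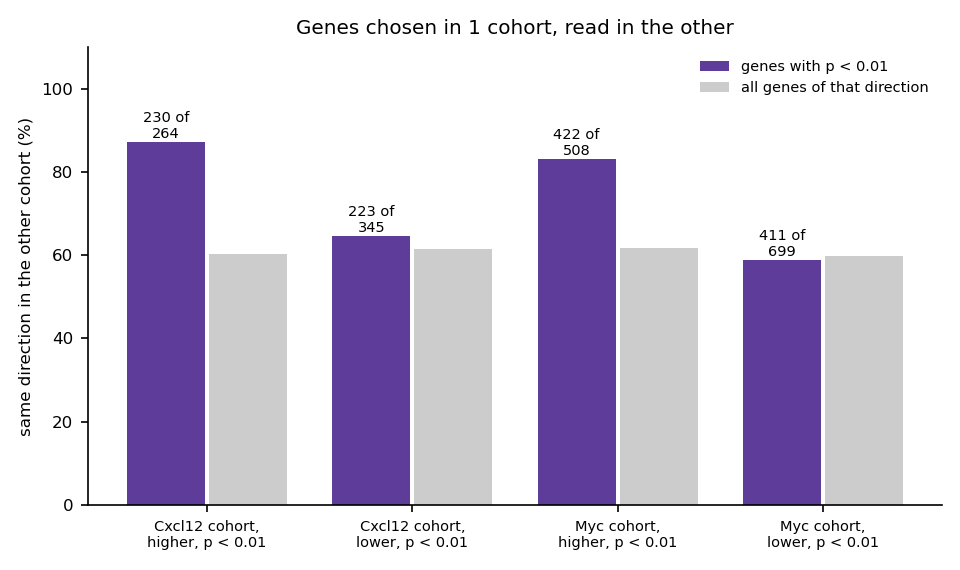
Share of genes (y axis, percent) that moved in the same direction in the other cohort, for genes with an unadjusted p under 0.01 in 1 cohort (purple bars, with the number of genes) and for all genes of that direction (grey bars). The purple bars stand at 87.1% and 83.1% for higher genes and at 64.6% and 58.8% for lower genes, and the grey bars between 59.9% and 61.8%.

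Calls in each cohort alone depended on the tool. In the *Myc* cohort edgeR called 246 of 14936 genes (1.65%), limma-voom called 215 and DESeq2 called 1139. In the *Cxcl12* cohort edgeR called 0 of 15154 genes (0%) at a smallest adjusted p of 0.0617, limma-voom called 0 and DESeq2 called 355, while 1976 genes (13%) had an unadjusted p under 0.05. An unadjusted p under 0.05 in each cohort and the same direction were found for 466 genes (3.16%), 330 higher and 136 lower, and 77 genes passed both thresholds in opposite directions. Of the 605 shared genes, 353 were among the 466. In 56 genes (0.352%) every KO kidney lay above every control kidney of its cohort, and 52 of them were among the shared genes. In 22 genes (0.138%) every KO kidney lay below, and 19 of these were among the shared genes.

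The number of calls depended on single kidneys. It was 1433 without *Myc* control 3, the kidney nearest to the KO group among the *Myc* controls for 238 of the 365 higher genes and 151 of the 240 lower genes. It was 107 without *Myc* KO 5, 122 without *Myc* KO 3, 156 without *Myc* control 2, 172 without *Myc* control 4, 181 without *Cxcl12* control 2, 209 without *Myc* KO 4, 251 without *Cxcl12* control 1, 252 without *Myc* control 5, 289 without *Cxcl12* KO 5, 363 without *Cxcl12* control 3, 389 without *Myc* control 1 and 392 without *Myc* KO 2. Without the 6 kidneys of low unmapped share it was 303. All 605 shared genes kept their direction in all 28 alternative fits, which is in part fixed, since they were chosen by their p over these same kidneys. The call itself was kept by 95 genes in all 18 fits that each left out 1 kidney, and by 69 genes, 46 higher and 23 lower, in all 28 alternative fits. These 69 are called stable below.

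Cytokine and prostaglandin genes were among the largest shared increases. *Ptgs2*, which encodes cyclooxygenase-2 and makes prostaglandin precursors (chromosome 1, 150100031 to 150108227 on GRCm38), had 12.6, 28.3, 39.7, 34.9 and 38.6 CPM in the *Cxcl12* KO kidneys and 12.9, 14.5 and 11.3 CPM in their controls. In the other cohort it had 67.9, 99.5, 143, 108 and 98.8 CPM in the *Myc* KO kidneys and 30, 72.8, 62.7, 49.8 and 28.1 CPM in their controls. *Cxcl12* KO 1 lay within its controls and *Myc* KO 1 below the highest *Myc* control, and the other KO kidneys lay above all controls of their cohort. The log2 fold change of *Ptgs2* was 1.15 ± 0.22 (SE, adjusted p = 0.0152), 1.24 with loss of *Cxcl12* and 1.09 with loss of *Myc*. *Il6*, an inflammatory cytokine (chromosome 5, 30013114 to 30019981), had 2.95, 10.9, 20.6, 13.4 and 15.6 CPM in the *Cxcl12* KO kidneys and 5.53, 3.98 and 4.9 CPM in their controls. It had 36.8, 41.3, 57.6, 28.9 and 36.5 CPM in the *Myc* KO kidneys and 8.79, 27.3, 24.9, 17.2 and 13.3 CPM in their controls. *Cxcl12* KO 1 was below all 3 controls, and all *Myc* KO kidneys were above all *Myc* controls. The log2 fold change of *Il6* was 1.23 ± 0.27 (SE, adjusted p = 0.0244), and the call was kept in 16 of the 18 fits without 1 kidney. *Lif*, a cytokine of the same family (chromosome 11, 4257557 to 4272514), had 31, 76.9, 149, 69 and 69.1 CPM in the *Cxcl12* KO kidneys and 39.5, 56.5 and 40.8 CPM in their controls. It had 157, 256, 228, 182 and 184 CPM in the *Myc* KO kidneys and 68.8, 106, 104, 64.9 and 91 CPM in their controls. Its groups overlapped in the *Cxcl12* cohort, where *Lif* had an unadjusted p of 0.0621, and did not overlap in the *Myc* cohort. The log2 fold change of *Lif* over both cohorts was 1.03 ± 0.21 (SE, adjusted p = 0.0188). *Cxcl5*, a chemokine that attracts neutrophils, was low at 1.89 to 8.01 CPM in *Cxcl12* KO against 1.38 to 1.67 CPM in control kidneys, and at 9.53 to 17.8 against 2.61 to 12.1 CPM in the *Myc* cohort. The *Cxcl5* groups were apart in the *Cxcl12* cohort alone, and its log2 fold change was 1.31 ± 0.28 (SE, adjusted p = 0.0233). *Ptgs2*, *Lif* and *Cxcl5* were stable.

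Regulators of the NF-kappaB and STAT3 pathways, which respond to such cytokines, were higher as well. *Socs3*, an inhibitor of cytokine receptor signalling, had 71.2, 73, 124, 72.6 and 117 CPM in the *Cxcl12* KO kidneys and 69.3, 60.1 and 57.6 CPM in their controls. It had 127, 157, 154, 193 and 139 CPM in the *Myc* KO kidneys and 72.9, 95.7, 106, 66.2 and 88.9 CPM in their controls. In neither cohort did the groups overlap, and the log2 fold change of *Socs3* was 0.72 ± 0.13 (SE, adjusted p = 0.0145). *Nfkbiz*, a nuclear IkappaB protein (chromosome 16, 55811375 to 55838899), had 66.2, 63.8, 72.5, 61.1 and 68.1 CPM in the *Cxcl12* KO kidneys and 45.4, 53.5 and 54.2 CPM in their controls. It had 82.4, 85.7, 107, 94.7 and 92.7 CPM in the *Myc* KO kidneys and 74.4, 69.5, 77.7, 61.6 and 60 CPM in their controls. The *Nfkbiz* groups did not overlap either, and its log2 fold change was 0.41 ± 0.066 (SE, adjusted p = 0.00961). Its exact two-sided permutation p was 7.1e-05, the smallest that 14112 regroupings within the cohorts can give. That value follows largely from the lack of overlap and is not adjusted for the choice of the gene. *Rel*, a DNA-binding subunit of NF-kappaB, changed by 0.49 ± 0.09 (SE, adjusted p = 0.0145), again without overlap. *Pim1*, a kinase gene induced by STAT proteins, changed by 0.68 ± 0.12 (SE, adjusted p = 0.0141), with 20.2 to 35 CPM in *Cxcl12* KO against 16.6 to 17.3 CPM in control kidneys. All of these genes were stable. Of 27 tested genes in a list of NF-kappaB, TNF and IL-1 signalling, 11 were called higher and 0 lower. The called genes were *Nfkb1*, *Rel*, *Rela*, *Relb*, *Nfkbiz*, *Il6*, *Il6ra*, *Osmr*, *Socs3*, *Birc3* and *Lif*. The list also holds genes of IL-6 family signalling, to which *Il6*, *Il6ra*, *Osmr*, *Socs3* and *Lif* belong. The median log2 fold change of this list was 0.33 (0.28 with loss of *Cxcl12* and 0.39 with loss of *Myc*).

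**Figure D3:**
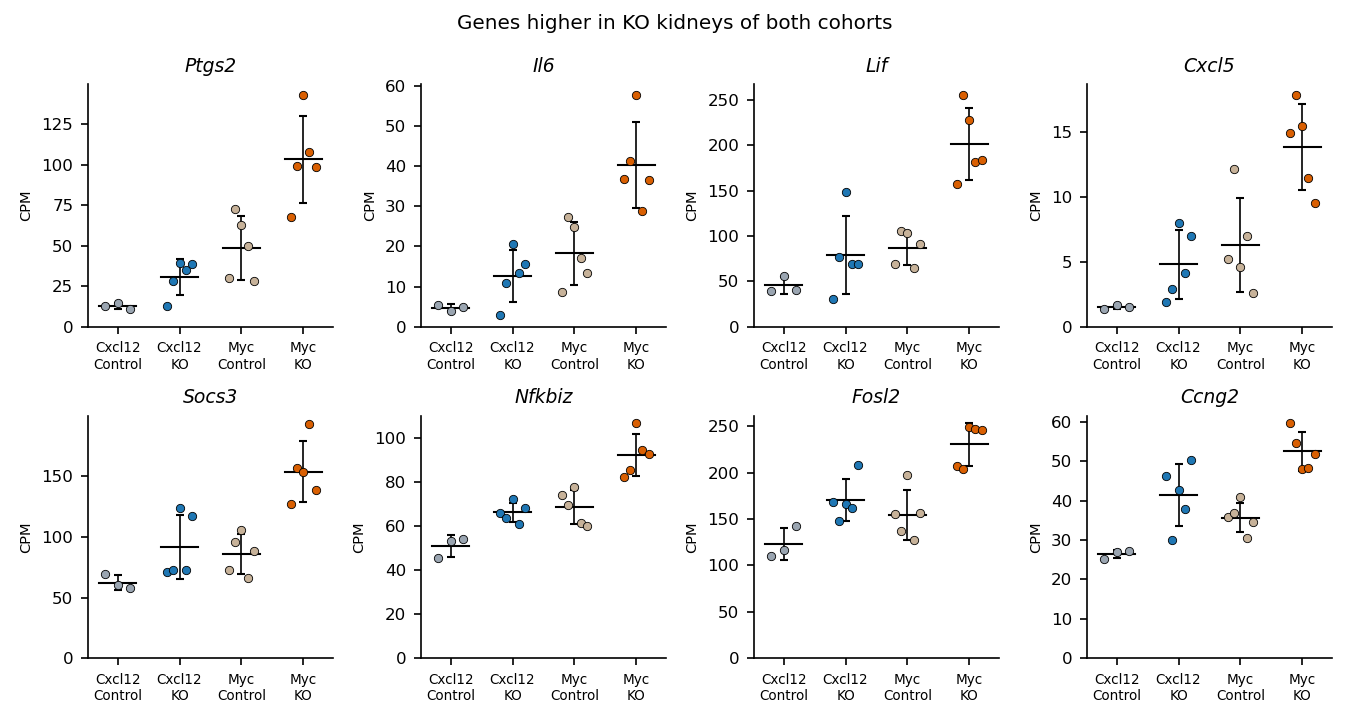
CPM (y axis, from 0) of 8 genes higher in KO kidneys of both cohorts. Each point is a kidney, the horizontal line is the group mean and the bar its SD, with n = 3 *Cxcl12* control and n = 5 kidneys in each other group. In *Socs3*, *Nfkbiz*, *Fosl2* and *Ccng2* every KO kidney lies above every control kidney of its cohort, and in *Ptgs2*, *Il6* and *Lif* 1 *Cxcl12* KO kidney lies within or below its controls.

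Immediate-early genes, which are transcribed within minutes of a stimulus, pointed one way. All 22 tested members had a higher value in KO kidneys over both cohorts, 21 of them in each cohort, and 5 were called. The median log2 fold change was 0.47, 0.46 with loss of *Cxcl12* and 0.47 with loss of *Myc*. *Fosl2*, a subunit of the transcription factor AP-1, had 168, 148, 166, 162 and 208 CPM in the *Cxcl12* KO kidneys and 110, 117 and 143 CPM in their controls. It had 207, 204, 249, 247 and 246 CPM in the *Myc* KO kidneys and 155, 137, 197, 127 and 156 CPM in their controls. The groups did not overlap, and the log2 fold change of *Fosl2* was 0.53 ± 0.088 (SE, adjusted p = 0.0120), which was stable. *Fos*, the classical AP-1 subunit, had 28.4, 22.8, 68.5, 17.1 and 27.3 CPM in the *Cxcl12* KO kidneys and 13.9, 15.9 and 19.4 CPM in their controls, so that *Cxcl12* KO 4 lay within its controls. It had 87.4, 111, 134, 110 and 97.2 CPM in the *Myc* KO kidneys and 36.7, 65.3, 77.5, 64.9 and 67.6 CPM in their controls, without overlap. The log2 fold change of *Fos* was 0.87 ± 0.21 (SE, adjusted p = 0.0335), and the call was kept in 11 of 18 fits without 1 kidney. The calls of *Klf6* (0.42, adjusted p = 0.0390) and *Nr4a3* (0.76, adjusted p = 0.0422) were kept in 6 and 5 of these fits. *Arc*, best known as a neuronal immediate-early gene, was not in the list and changed by 0.72 ± 0.11 (SE, adjusted p = 0.00841), without overlap in either cohort and with a stable call.

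Several further stable increases belonged to signalling and growth control. *Ccng2*, an atypical cyclin linked to cell cycle arrest (chromosome 5, 93267257 to 93276231), had 46.1, 30, 42.6, 37.9 and 50.2 CPM in the *Cxcl12* KO kidneys and 25.2, 26.9 and 27.1 CPM in their controls. It had 59.7, 54.7, 48, 48.2 and 51.8 CPM in the *Myc* KO kidneys and 35.8, 36.8, 40.8, 30.4 and 34.6 CPM in their controls. The groups were apart in both cohorts, and the log2 fold change of *Ccng2* was 0.59 ± 0.085 (SE, adjusted p = 0.00717), the smallest p among the higher genes. *Adora2b*, a receptor for extracellular adenosine, had 20.5 to 24.9 CPM in *Cxcl12* KO against 12.2 to 16.6 CPM in control kidneys, and 24.3 to 30.6 against 20.4 to 24.2 CPM in the *Myc* cohort. The *Adora2b* groups did not overlap, and its log2 fold change was 0.45 ± 0.078 (SE, adjusted p = 0.0138). *Pde4b*, which degrades cyclic AMP, changed by 0.67 ± 0.12 (SE, adjusted p = 0.0152). *Clk1*, a kinase of splicing factors, changed by 0.43 ± 0.068 (SE, adjusted p = 0.00961). Its groups met at 93.3 CPM in *Cxcl12* KO 4 and *Cxcl12* control 2, and were apart in the *Myc* cohort. In the list of splicing factors *Clk1*, *Clk4* and *Hnrnph1* were called higher and 0 of 35 lower, at a list median of 0.07. The calls of *Clk4* (0.30) and *Hnrnph1* (0.23) were kept in 12 and 3 of the 18 fits without 1 kidney. *Slc6a14*, an amino acid transporter, was among the largest changes at 1.20 ± 0.23 (SE, adjusted p = 0.0153), from 0.748 to 3.03 CPM in *Cxcl12* KO against 0.332 to 0.897 CPM in control kidneys and from 4.86 to 7.57 against 2.16 to 3.12 CPM in the *Myc* cohort.

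*Cxcr4*, the receptor of CXCL12, was higher in the KO kidneys of both cohorts. It had 8.19, 6.1, 12.2, 6.77 and 6.7 CPM in the *Cxcl12* KO kidneys and 4.26, 5.33 and 6.46 CPM in their controls. It had 17.8, 18.9, 25.1, 18 and 26.4 CPM in the *Myc* KO kidneys and 8.02, 11.5, 13.8, 10.8 and 18.1 CPM in their controls. In both cohorts 1 control kidney reached into the KO range, and the log2 fold change of *Cxcr4* was 0.70 ± 0.16 (SE, adjusted p = 0.0300), 0.57 with loss of *Cxcl12* and 0.78 with loss of *Myc*, with the call kept in 13 of 18 fits without 1 kidney. *Cx3cr1*, the fractalkine receptor of mononuclear phagocytes, was lower. It had 1.1, 2.58, 1.56, 1.55 and 0.62 CPM in the *Cxcl12* KO kidneys and 4.04, 3.55 and 2.81 CPM in their controls. It had 1.5, 1.63, 1.46, 1.68 and 1.2 CPM in the *Myc* KO kidneys and 5.67, 2.95, 1.59, 5.36 and 2.14 CPM in their controls. *Myc* control 3 lay in the KO range and *Myc* control 5 just above it, and the log2 fold change of *Cx3cr1* was -1.23 ± 0.25 (SE, adjusted p = 0.0203), which was stable. Among 23 tested chemokines and receptors, *Cxcl5* and *Cxcr4* were called higher and *Cx3cr1* lower.

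Markers of leukocytes and vessels were read beside these changes. All 14 neutrophil markers had a higher value in KO kidneys over both cohorts, and none was called. Their median log2 fold change was 1.01 (1.45 with loss of *Cxcl12* and 0.79 with loss of *Myc*), at an SD of the list median between kidneys of 0.709. Their summed level was 45.8 to 196.3 CPM in *Cxcl12* KO against 31.5 to 41.0 CPM in control kidneys, and 211.8 to 397.6 against 65.5 to 349.1 CPM in the *Myc* cohort, with 0 of 14 markers at 0 in any kidney. Examples were *Trem1* (0.96, adjusted p = 0.0608) and *Mmp8* (1.33, adjusted p = 0.0697). The part of these cells in the cytokine changes was not tested. Of 20 macrophage and dendritic cell markers only *Cx3cr1* was called (5%, against 3.86% of all tested genes). The sum of these markers was 326 to 485.3 CPM in *Cxcl12* KO against 315.2 to 340.7 CPM in control kidneys and 472.6 to 583 against 379.6 to 618.3 CPM in the *Myc* cohort. Of 19 endothelial markers 14 had a higher value, at a median of 0.25 (0.14 with loss of *Cxcl12* and 0.33 with loss of *Myc*). The SD of this list median between kidneys was 0.219. *Cdh5* (VE-cadherin, the junction protein of endothelium) changed by 0.52 ± 0.13 (SE, adjusted p = 0.0372). *Nos3*, the endothelial nitric oxide synthase, changed by 0.48 ± 0.11 (SE, adjusted p = 0.0323). *Plat*, tissue plasminogen activator, changed by 0.53 ± 0.15 (SE, adjusted p = 0.0478). These endothelial calls were kept in 8, 11 and 5 of the 18 fits without 1 kidney. The endothelial sum was 1567 to 2179 CPM in *Cxcl12* KO against 1565 to 1616 CPM in control kidneys, and 1994 to 2745 against 1567 to 2448 CPM in the *Myc* cohort.

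Some genes of matrix remodelling and tubular injury were called, mostly upwards, as were genes in general (370 higher against 244 lower). In the list of 30 matrix and remodelling genes 6 were called higher and 1 lower, with a median of 0.40 (0.30 and 0.43 in the *Cxcl12* and the *Myc* cohort). *Mmp3*, stromelysin-1, had 3.43, 5.57, 9.96, 3.22 and 9.3 CPM in the *Cxcl12* KO kidneys and 2.66, 3.12 and 2.87 CPM in their controls. It had 6.64, 9.18, 11.1, 15.5 and 11.5 CPM in the *Myc* KO kidneys and 5.4, 7.27, 6.94, 7.21 and 7.47 CPM in their controls. Its groups were apart in the *Cxcl12* cohort and overlapped through *Myc* KO 1, and the log2 fold change of *Mmp3* was 0.83 ± 0.21 (SE, adjusted p = 0.0392), kept in 7 of 18 fits without 1 kidney. *Adamts1*, a secreted metalloprotease, changed by 0.46 ± 0.092 (SE, adjusted p = 0.0187) and was stable. *Itgav*, the integrin subunit alpha V, changed by 0.42 ± 0.10 (SE, adjusted p = 0.0368). *Col1a1*, a chain of type I collagen, went the other way at -0.55 ± 0.13 (SE, adjusted p = 0.0335), with the call kept in 11 of these fits and overlap in both cohorts. Of 22 tubular injury markers *Lcn2* and *Hbegf* were called higher, and 10 had a higher value in each cohort. *Lcn2* (NGAL) had a mean of 938 ± 214 CPM (SD, n = 5) in *Cxcl12* KO against 524 ± 78.0 CPM (SD, n = 3) in control kidneys. In the *Myc* cohort the *Lcn2* groups overlapped, at 1280 to 1780 CPM in KO against 684 to 1640 CPM in control kidneys. The log2 fold change of *Lcn2* was 0.58 ± 0.15 (SE, adjusted p = 0.0422) over both cohorts. *Havcr1* (KIM-1) was not called (-0.73, adjusted p = 0.220), at 0.10 with loss of *Cxcl12* and -1.32 with loss of *Myc*. The *Lcn2* and *Hbegf* calls were kept in 6 and 3 of the 18 fits.

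Several genes known from the loop of Henle, distal tubule and collecting duct fell, of which *Hsd11b2*, *Kcnj1* and *Scnn1g* belong to the list of markers of these segments and *Bsnd* and *Rhcg* do not. *Hsd11b2*, which inactivates glucocorticoids in aldosterone-sensitive cells (chromosome 8, 105518755 to 105523988), had 37.3, 35.3, 29.9, 22.4 and 17.7 CPM in the *Cxcl12* KO kidneys and 73.3, 71.3 and 47.5 CPM in their controls. It had 36, 30.7, 31, 23.5 and 24.8 CPM in the *Myc* KO kidneys and 53.2, 40.8, 31.4, 50.6 and 53.5 CPM in their controls. The groups were apart in the *Cxcl12* cohort, *Myc* control 3 lay in the KO range, and the log2 fold change of *Hsd11b2* was -0.88 ± 0.15 (SE, adjusted p = 0.0141). *Bsnd* (barttin, the accessory subunit of the ClC-K chloride channels) had 11.6, 11.5, 7.23, 6.72 and 5.95 CPM in the *Cxcl12* KO kidneys and 18.9, 17.5 and 19.4 CPM in their controls. It had 5.38, 8.28, 5.62, 6.52 and 7.37 CPM in the *Myc* KO kidneys and 11.8, 9.63, 7.38, 17.1 and 11.7 CPM in their controls. Again *Myc* control 3 alone lay in the KO range, and the log2 fold change of *Bsnd* was -0.93 ± 0.16 (SE, adjusted p = 0.0138). *Kcnj1* (ROMK, the potassium channel of the loop and collecting duct) had 113, 72.7, 47.1, 42.3 and 37.6 CPM in the *Cxcl12* KO kidneys and 133, 112 and 110 CPM in their controls. It had 41.7, 55.9, 50.6, 38 and 53.8 CPM in the *Myc* KO kidneys and 84.5, 64.2, 54.8, 102 and 95.5 CPM in their controls. *Cxcl12* KO 1 lay within its controls and *Myc* control 3 in the KO range, and the log2 fold change of *Kcnj1* was -0.81 ± 0.18 (SE, adjusted p = 0.0242), kept in 17 of 18 fits without 1 kidney. *Rhcg*, an ammonia channel, changed by -0.83 ± 0.18 (SE, adjusted p = 0.0233). *Scnn1g*, the gamma subunit of the epithelial sodium channel, changed by -0.46 ± 0.11 (SE, adjusted p = 0.0314), with every KO kidney below every control of its cohort. *Hsd11b2* and *Bsnd* were stable.

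Most markers of these segments were not called. Of 23 tested loop, distal tubule and collecting duct markers 10 had a higher and 13 a lower value over both cohorts, and *Hsd11b2*, *Kcnj1*, *Scnn1g* and *Ppp1r1b* (-0.87, adjusted p = 0.0343) were called lower. *Trpm6*, a magnesium channel of the distal convoluted tubule, was called higher at 0.78 ± 0.18 (SE, adjusted p = 0.0302). The median of the loop, distal tubule and collecting duct list was -0.02 (0.03 with a length and GC correction per gene), and its sum overlapped between KO and control kidneys in both cohorts, at 4608 to 7617 against 6028 to 7053 CPM in the *Cxcl12* and 6713 to 8583 against 5681 to 9526 CPM in the *Myc* cohort. None of 28 proximal tubule markers was called, at a list median of -0.06.

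The smallest p of all belonged to *Them6* (chromosome 15, 74721204 to 74724639), a thioesterase superfamily gene. It had 21.7, 23.2, 24, 25.6 and 18.4 CPM in the *Cxcl12* KO kidneys and 40.4, 35.4 and 36.8 CPM in their controls. It had 16.5, 16.5, 12.7, 16.8 and 11.3 CPM in the *Myc* KO kidneys and 25.4, 25.9, 17.7, 33 and 27.7 CPM in their controls. Every KO kidney was below every control kidney of its cohort, and the log2 fold change of *Them6* was -0.78 ± 0.11 (SE, adjusted p = 0.00623). The exact two-sided permutation p of *Them6* was 7.1e-05, again the smallest possible, unadjusted and largely a result of the lack of overlap. *Kcnip2*, an interacting protein of potassium channels, had the largest decrease at a low level. It had 1.54, 2.39, 1.4, 1.78 and 1.05 CPM in the *Cxcl12* KO kidneys and 6.69, 3.93 and 3.83 CPM in their controls. It had 0.87, 1.24, 0.686, 0.745 and 0.501 CPM in the *Myc* KO kidneys and 1.93, 1.38, 1.49, 2.03 and 1.36 CPM in their controls. The *Kcnip2* groups did not overlap, and its log2 fold change was -1.29 ± 0.20 (SE, adjusted p = 0.00841). *Sostdc1*, a secreted antagonist of BMP and WNT signalling, changed by -0.89 ± 0.18 (SE, adjusted p = 0.0187). *Tmem52b* changed by -0.94 ± 0.18 (SE, adjusted p = 0.0167), with *Myc* control 3 in the KO range. *Cnnm1*, of a family of magnesium transport proteins, changed by -0.47 ± 0.084 (SE, adjusted p = 0.0141) without overlap. These 5 genes were stable.

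**Figure D4:**
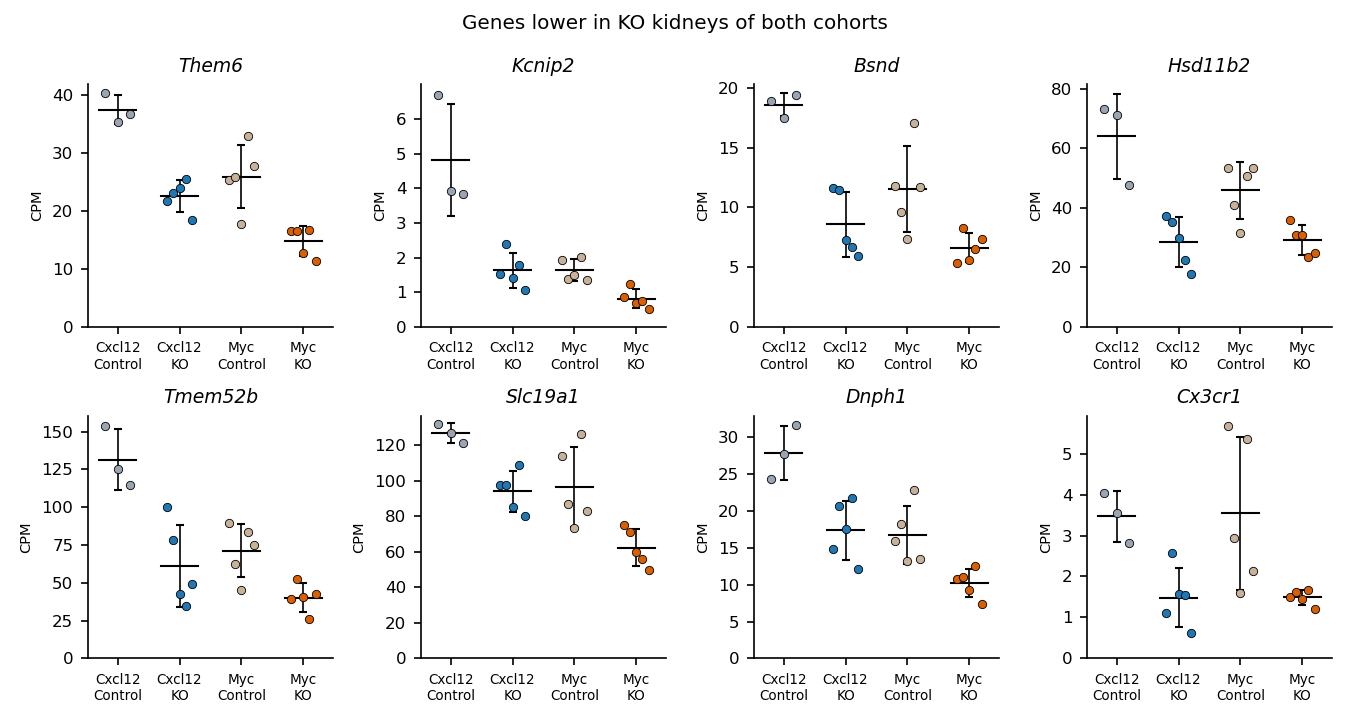
CPM (y axis, from 0) of 8 genes lower in KO kidneys of both cohorts. Each point is a kidney, the horizontal line is the group mean and the bar its SD, with n = 3 *Cxcl12* control and n = 5 kidneys in each other group. *Them6*, *Kcnip2* and *Dnph1* show no overlap in either cohort, and in *Bsnd*, *Hsd11b2* and *Tmem52b* 1 *Myc* control kidney, *Myc* control 3, lies in the KO range.

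Several genes of nucleotide and folate metabolism fell. *Slc19a1*, the reduced folate carrier (chromosome 10, 77032241 to 77061002), had 97.6, 97.4, 85, 109 and 80.2 CPM in the *Cxcl12* KO kidneys and 132, 127 and 121 CPM in their controls. It had 75.1, 70.9, 59.7, 55.9 and 49.6 CPM in the *Myc* KO kidneys and 114, 86.6, 73.3, 126 and 82.6 CPM in their controls. *Myc* control 3 lay just under *Myc* KO 1, the other kidneys of the cohorts were apart, and the log2 fold change of *Slc19a1* was -0.55 ± 0.10 (SE, adjusted p = 0.0154). *Dnph1*, a hydrolase of modified deoxynucleotides, had 14.8, 20.7, 17.5, 21.8 and 12.1 CPM in the *Cxcl12* KO kidneys and 24.4, 27.7 and 31.7 CPM in their controls. It had 10.8, 11.1, 9.28, 12.5 and 7.4 CPM in the *Myc* KO kidneys and 16, 18.2, 13.2, 22.9 and 13.5 CPM in their controls. The *Dnph1* groups did not overlap, and its log2 fold change was -0.70 ± 0.13 (SE, adjusted p = 0.0152). *Adsl*, adenylosuccinate lyase of purine synthesis, changed by -0.30 ± 0.056 (SE, adjusted p = 0.0145). *Shmt1*, the cytosolic serine hydroxymethyltransferase, changed by -0.37 ± 0.081 (SE, adjusted p = 0.0237). *Slc19a1*, *Dnph1* and *Adsl* were stable, and the call of *Shmt1* was kept in 15 of 18 fits without 1 kidney. In the list of 33 genes of nucleotide, serine and one-carbon synthesis, 6 were called lower and 0 higher. *Slc19a1* and *Dnph1* do not belong to this list. Its called genes include *Adsl*, *Shmt1* and, described below, *Atic* and *Srm*. The list median was -0.21 over both cohorts, -0.03 with loss of *Cxcl12* and -0.25 with loss of *Myc*.

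Some genes called over both cohorts in these pathways had a small change in the *Cxcl12* cohort. *Atic*, which makes the last steps of purine synthesis, had 56.8, 75.2, 58.1, 70.7 and 60.3 CPM in the *Cxcl12* KO kidneys and 66.8, 71.8 and 63.3 CPM in their controls. It had 42.2, 36.6, 42.1, 43.8 and 39 CPM in the *Myc* KO kidneys and 65.5, 60.8, 55.3, 63.7 and 59 CPM in their controls. The *Atic* groups overlapped widely in the *Cxcl12* cohort (log2 fold change -0.07, unadjusted p = 0.519) and were apart in the *Myc* cohort (-0.58). *Srm*, spermidine synthase, was called over both cohorts at -0.48 but had a log2 fold change of -0.02 with loss of *Cxcl12* and -0.82 with loss of *Myc*, and it was the 1 shared gene whose change differed between the cohorts after adjustment (difference -0.81, adjusted p = 0.0377). Of 56 ribosome biogenesis genes 6 were called lower, and the list median was 0.07 with loss of *Cxcl12* and -0.37 with loss of *Myc*. Over both cohorts it was -0.19, and -0.12 without the 6 kidneys of low unmapped share. Of the 56 genes 13 had a lower value in each cohort. The RNA polymerase I subunits *Polr1e* and *Polr1b* had log2 fold changes of -0.13 and -0.09 in the *Cxcl12* and of -0.67 and -0.59 in the *Myc* cohort. Over all tested genes the change differed between the cohorts in 11 (0.0692%), among them *Myc* itself and its neighbour *Pvt1*, a long noncoding RNA gene (difference 1.66), which were 2 of the 3 called genes with opposite directions. At an unadjusted p under 0.05 the difference passed in 77 of the 605 shared genes and in 11.4% of all genes.

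Medians of nuclear genes of the mitochondrion were below 0 in both cohorts, by less than the spread between kidneys for complexes I to V, where the SD of the list median was 0.194 for complex I and 0.17 for complexes II to V. All 36 subunits of complex I had a lower value in KO kidneys, 33 of them in each cohort, and none was called. The median log2 fold change was -0.15, -0.18 with loss of *Cxcl12* and -0.13 with loss of *Myc*. All 39 subunits of complexes II to V had lower values too, at a median of -0.13, and 1 of them was called (2.56%, against 3.86% of all tested genes). This was *Atp5g1*, a subunit of the c ring of ATP synthase, at -0.37 ± 0.10 (SE, adjusted p = 0.0405), kept in 7 of 18 fits without 1 kidney. A length and GC correction per gene brought these medians to -0.08 and -0.05. Of 76 mitochondrial ribosomal proteins 74 had a lower value and 6 were called (7.9%). Their median was -0.20 (-0.10 with loss of *Cxcl12* and -0.28 with loss of *Myc*), or -0.14 with the same correction. *Mrpl12* changed by -0.39 ± 0.091 (SE, adjusted p = 0.0331). *Mrps35* and *Mrps23* changed by -0.29 and -0.21. *Bcs1l*, an assembly factor of complex III, changed by -0.42 ± 0.078 (SE, adjusted p = 0.0152) and *Mtg1*, a GTPase of the mitochondrial ribosome, by -0.46 ± 0.087 (SE, adjusted p = 0.0152), both stable and without overlap in either cohort. Of the 13 mRNAs encoded by the mitochondrion itself 7 were tested. These 7 had higher values in both cohorts, none called, at a median of 0.16, and the other 6 did not pass the filter on low counts. Multimapping reads are not counted, so a low count does not show a low level of these mRNAs. For *Eci1*, an isomerase of fatty acid oxidation, the change was -0.39 ± 0.11 (SE, adjusted p = 0.0454), the only call among 38 genes of that pathway (2.63%).

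**Figure D5:**
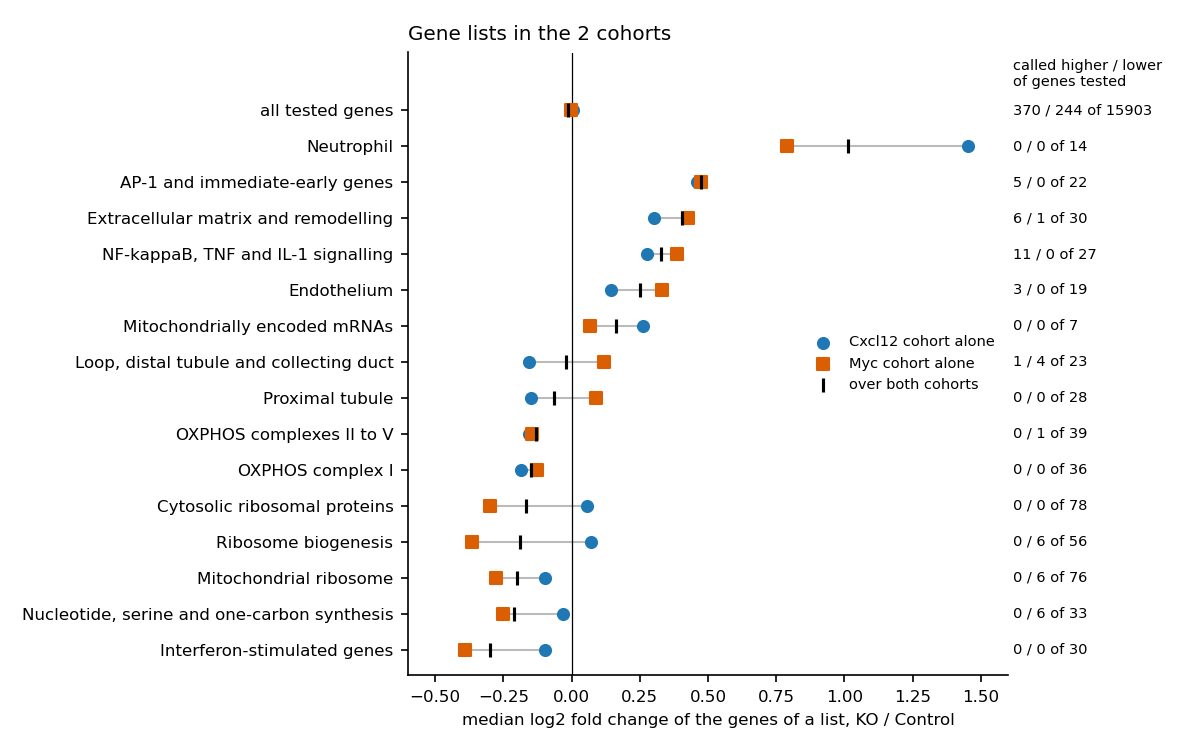
Median log2 fold change (x axis) of the genes of each list, in the *Cxcl12* cohort (blue circles), in the *Myc* cohort (orange squares) and over both (black bars), with the number of genes called higher and lower at the right. Neutrophil, immediate-early, matrix, NF-kappaB and endothelial lists lie above 0 in both cohorts, the lists of complexes I to V (OXPHOS) and of the mitochondrial ribosome lie below 0 in both, and ribosome biogenesis and cytosolic ribosomal proteins lie on opposite sides of 0 in the 2 cohorts.

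Carbohydrate and retinoid genes gave single calls. The called share was 10% for glycolysis, 20% for gluconeogenesis and 4% for retinoid genes, against 3.86% of all tested genes. Of 20 glycolysis genes, *Hk2* (hexokinase 2) and *Pfkfb3* (which makes the activator of phosphofructokinase) were called higher and none lower, while the list median was -0.12. *Hk2* changed by 0.55 ± 0.15 (SE, adjusted p = 0.0480) and *Pfkfb3* by 0.41 ± 0.10 (SE, adjusted p = 0.0358), kept in 3 and 9 of 18 fits without 1 kidney. Of 10 gluconeogenesis genes, *Slc2a2* and *Pck2* were called lower. *Slc2a2*, the glucose transporter GLUT2, had 87.4, 89.8, 65.1, 59.8 and 36.5 CPM in the *Cxcl12* KO kidneys and 244, 163 and 123 CPM in their controls. It had 55.8, 59, 66.8, 69.2 and 56.7 CPM in the *Myc* KO kidneys and 91, 67.2, 53.5, 80.2 and 74.4 CPM in their controls. The *Slc2a2* groups were apart in the *Cxcl12* cohort alone, its changes were -1.38 and -0.25, and the pooled call was kept in 4 of 18 fits. *Pck2* had log2 fold changes of -0.17 with loss of *Cxcl12* and -0.62 with loss of *Myc*. Of 25 retinoid genes, *Dhrs9*, a retinol dehydrogenase, was called higher at 1.15 ± 0.29 (SE, adjusted p = 0.0389) and a low level of 0.299 to 8.32 CPM, and none was called lower.

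Other lists held few calls. The called share was 20% for p53 targets, 10.5% for clock genes and 3.1% for cell cycle genes, against 3.86% of all tested genes. Of 20 p53 targets, *Pmaip1* (NOXA, a promoter of apoptosis) and *Plk2* were called higher and *Phlda3* and *Aen* lower. *Pmaip1* changed by 0.77 ± 0.16 (SE, adjusted p = 0.0233) and *Phlda3*, an inhibitor of AKT, by -0.47 ± 0.082 (SE, adjusted p = 0.0141), and both calls were kept in all 18 fits without 1 kidney. Among 19 clock genes *Cry2* and *Nfil3* were called higher (0.36 and 0.45). In the MYC and MAX network *Mxd1*, a MAX partner that represses E-box genes, was called higher at 0.66 ± 0.17 (SE, adjusted p = 0.0392), kept in 5 of 18 fits. *Mcm2*, of the replicative helicase, was the only call among 32 cell cycle genes at -0.37 ± 0.091 (SE, adjusted p = 0.0376). None of 30 interferon-stimulated genes was called, although 26 had a lower value, at a median of -0.30. Their lead gene *Ifit3* (-0.83, adjusted p = 0.0787) was at 32.8 CPM in *Myc* control 1 and at or under 10.8 CPM in the other kidneys. None of 78 cytosolic ribosomal protein genes and none of 31 proteasome genes was called.

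Transcript length and base composition were compared as well, without a test. The median transcript length was 4520.5 bases for the higher and 2806 bases for the lower genes against 3169.5 bases for all genes tested. The median GC content was 48.2%, 53.2% and 49.7%. With a per-kidney correction for both, 692 genes were called in place of 614, 432 higher and 260 lower.

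Promoters were searched for the E-box CACGTG and, chosen after the changes had been seen, for the AP-1 motif TGANTCA and the cyclic AMP element TGACGTCA, on both strands from 250 bases before to 50 bases after the transcription start of RefSeq on GRCm38.p6. A RefSeq promoter was found for 273 of the 365 higher, 196 of the 240 lower and 11532 of all 15903 tested genes. The E-box was present for 21.4% of the lower, 9.52% of the higher and 11.3% of all genes. The AP-1 motif was present for 11% of the higher, 7.65% of the lower and 6.82% of all genes, and the cyclic AMP element for 3.66%, 1.02% and 3.4%. The median GC content of the promoters was 58.7% for lower, 62.7% for higher and 60.3% for all genes. The 42 lower genes with an E-box had a median log2 fold change of -0.22 with loss of *Cxcl12* and -0.48 with loss of *Myc*, against -0.28 and -0.40 for the 154 lower genes without one. The 30 higher genes with an AP-1 motif had a median of 0.65 over both cohorts, against 0.36 for the other 243. A match is a description of the sequence and not of binding.

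The stretches below carry the motif in capitals and are 100 bases long, 5′ to 3′ on the strand of the gene. The first 3 belong to lower genes with an E-box, 7, 17 and 44 bases before the start, namely *Atic* (chr1:71557056-71557155, + strand), *Dnph1* (chr17:46496689-46496788, + strand) and *Atp5g1* (chr11:96075632-96075731, - strand). The last 3 belong to higher genes with an AP-1 motif, 249, 228 and 46 bases before the start, namely *Il6* (chr5:30012864-30012963, + strand), *Lif* (chr11:4257318-4257417, + strand) and *Mmp3* (chr9:7445722-7445821, + strand).
Atic: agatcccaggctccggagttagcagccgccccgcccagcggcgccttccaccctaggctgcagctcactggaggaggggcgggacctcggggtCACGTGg
Dnph1: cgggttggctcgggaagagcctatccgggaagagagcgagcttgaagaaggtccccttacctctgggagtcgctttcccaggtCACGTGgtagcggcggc
Atp5g1: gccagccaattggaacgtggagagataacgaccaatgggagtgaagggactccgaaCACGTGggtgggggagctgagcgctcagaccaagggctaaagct
Il6: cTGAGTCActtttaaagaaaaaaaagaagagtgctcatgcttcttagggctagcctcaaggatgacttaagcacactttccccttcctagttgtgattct
Lif: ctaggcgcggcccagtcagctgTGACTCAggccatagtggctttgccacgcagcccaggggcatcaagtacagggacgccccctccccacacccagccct
Mmp3: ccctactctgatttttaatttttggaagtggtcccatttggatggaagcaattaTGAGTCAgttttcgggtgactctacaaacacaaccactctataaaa
In these windows each motif occurred 1 time. *Atic*, with an E-box near the start, had log2 fold changes of -0.07 with loss of *Cxcl12* and -0.58 with loss of *Myc*, while *Dnph1*, with an E-box at a like distance, had -0.69 and -0.71.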

How the data were processed

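RNA of 18 whole kidneys was sequenced, 1 library per kidney. The authors trimmed the reads with Trimmomatic 0.32, aligned them to GRCm38 with STAR 2.4.0 and deposited the read counts per gene that STAR wrote. Column 2 of each table, which counts both strands together, was used, so that overlapping and antisense genes cannot be told apart, and reads of near-identical copies are left out as multimapping. Of 45706 genes 45143 were matched by identifier to GENCODE vM21 for symbols and positions. The 4 summary lines of each table, which name no gene, stayed out of library sizes and tests (unmapped reads were 3.69% to 6.48%, multimapping reads 16.6% to 18.6%, and reads on no gene 4.77% to 7.07% of all reads).

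Counts were filtered with filterByExpr over the 4 groups, scaled by TMM and tested with the quasi-likelihood test of edgeR 4.0.16 (limma 3.58.1, R 4.3.3), with genotype and cohort as terms, the cohorts also fitted alone, and an interaction term for their difference. P-values were adjusted by Benjamini-Hochberg over all genes tested, at a threshold of 0.05. Levels are CPM, and the exact permutation test exchanged KO and control within a cohort on log2 CPM with a prior count of 2. No 2 kidneys of a group agreed within sampling noise (33 pairs, chi-square per degree of freedom 6.31 to 76.1). On simulated data for 15605 genes in this design, every gene was given the same spread between kidneys (dispersion). There edgeR called 38 of 100 genes changed by 0.5 and 99 of 100 changed by 1 on the log2 scale over both cohorts. Calls also fell on 8 unchanged genes. Of differences of 1 between the cohorts, 16 of 100 were called. Real genes differ in their spread, so these shares need not hold for them.

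Genes named in the text came from a rule. It took the target genes and *Havcr1* and *Lcn2*, the 15 largest changes and 15 smallest p in each direction among called genes with the same direction in both cohorts and a mean of at least 1 CPM, the 10 per direction with the smallest larger p of the cohorts, the 4 smallest p of each of 40 gene lists, and the 10 smallest p for a difference between the cohorts. Other genes are only listed as called members. The members and lists were chosen with earlier results of these data known, and of 1044 list symbols 1043 were matched. Lists are described by counts and medians, with no test. Alternatives were DESeq2 size factors, 2 other filters, the DESeq2 1.42.0 and limma-voom tests, equal weights of the cohorts, a replicate block, a term for or the loss of the 6 kidneys of low unmapped share, a length and GC correction per gene, and the loss of each kidney in turn. Those for the shares between cohorts were chosen after seeing the data.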

Additional observations from a re-analysis of the deposited data

Results flagged for a closer look

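For the 77 named genes the 3 groups of 5 kidneys were examined, 231 groups of values in all, and 14 held 1 kidney far from the rest by Dixon's criterion, which chance flags in about 1 in 20 groups. On the low side these were *Cxcl12* in *Myc* control 4 (29.8 CPM), *Havcr1* in *Cxcl12* KO 3 (211 CPM) and *Myc* KO 4 (72.7 CPM), *Fos* in *Myc* control 1 (36.7 CPM), *Clk4* in *Myc* KO 4 (59.1 CPM) and *Mmp3* in *Myc* control 1 (5.4 CPM). *Col1a1*, *Bcs1l* and *Shmt1* were low in *Cxcl12* KO 5 (24.6, 9.24 and 24.2 CPM), and *Bcs1l* was also low in *Myc* control 3 (11.2 CPM). On the high side were *Hk2* in *Myc* KO 5 (40.8 CPM), *Slc6a14* in *Myc* KO 4 (7.57 CPM), *Ppp1r1b* in *Cxcl12* KO 1 (4.62 CPM) and *Ifit3* in *Myc* control 1 (32.8 CPM).

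The change differed between the cohorts, by the interaction term of edgeR, in *Myc* (-1.83 on the log2 scale, *Myc* cohort minus *Cxcl12* cohort), in *Pvt1* (1.66) and in *Srm* (-0.81).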

How the results depend on the processing

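The number of genes called over both cohorts was 614 (370 higher, 244 lower, 605 with the same direction in each cohort). It was 348 (202, 146 and 344) with no filter beyond a total of at least 1 count, 1522 (897, 625 and 1497) with the DESeq2 Wald test, 303 (216, 87 and 303) without the kidneys with an unmapped share under 5% and 280 (192, 88 and 277) with a replicate block. Whether replicate numbers pair the kidneys cannot be decided from so few pairs. In the *Cxcl12* cohort the deviations of equal numbers from their group means correlated at -0.0321 to 0.134 over 3 pairs (mean 0.0678). In the *Myc* cohort they correlated at -0.211 to 0.402 over 5 pairs (mean 0.0529). Different numbers had means of -0.0169 and -0.0112. Without 1 kidney each, the calls ran from 107 to 1433 (71 to 873 higher, 36 to 560 lower, 106 to 1408 with the same direction), and the genes with an unadjusted p under 0.05 in each cohort and the same direction from 290 to 636. The genes whose change differed between the cohorts were 11, but 314 with DESeq2, 3 with limma-voom, 133 with the term for kidneys of low unmapped share, 44 without these kidneys and 36 with the length and GC correction. Between cohorts, 56.9% of the lower *Cxcl12* and 71.2% of the higher *Myc* genes kept their direction without these kidneys. Without 1 kidney each, the shares ran from 77.3% to 92.9% for higher and 57.1% to 71.1% for lower genes of the *Cxcl12* cohort, and from 70.7% to 85.4% and 50.8% to 64.6% for those of the *Myc* cohort. The cause was not tested for any of these shifts. Of 2156 values of the 77 named genes under the alternatives, 0 reversed, which the choice of mostly called genes fixes in part. Of the 72 called genes 29 were called in every alternative. The leave-one-out fits limit the shared calls most, with 0 to 40 of the 72 lost. In simulated data with the same spread for every gene, 38 of 100 changes of 0.5 on the log2 scale were called.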
